A study of Mus musculus with 9 samples.

Results

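Regions of lung endothelial chromatin that were called open in infant mice and in no adult library are described here. They were chosen by their peaks: the distinct peak intervals of all 9 libraries were merged where they overlapped by at least 1 bp, and a merged region was kept when each of the 3 infant libraries had a peak in it and none of the 6 adult libraries did. This rule kept 12315 of 126907 merged regions, or 9.7%. The assay was ATAC-seq, in which a transposase inserts adapters into accessible DNA, and a peak is a stretch where such insertions were called as enriched. It was run on endothelial cells that had been sorted by fluorescence from mouse lungs at an infant, a young adult and a mature adult age, with 3 libraries per age. All groups share the tissue, the cell type and the sort. The labels name no strain, age in days, treatment or sort marker, and whether replicates are different animals is not stated, so the p-values below measure only the spread between libraries, which may be technical. Each library is known by its peak intervals alone, with no height or read number, so depth is unknown. List length, 88856 to 94646 distinct peaks in infant and 59793 to 68366 in adult libraries, is the one guide to how much could be called. A region without a peak is therefore not shown to be closed, and in such bulk samples a region open in few cells cannot be told apart from one weakly open in many.

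Accessible regions are mostly promoters, which lie at the start of genes, and enhancers, which can lie far from the gene they act on. As background, many enhancers of developing tissues are accessible for a limited period, while promoters of widely used genes stay accessible at most ages. The infant mouse lung is still building its air sacs and capillaries, and its endothelial cells divide and sprout more than those of the adult lung.

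Infant-only regions overlapped the promoters of 394 protein-coding genes. Sequences are shown for the 8 of these with the widest infant peaks, because such a promoter joins an infant-only region to a named gene start. Each line gives the 250 bases before the gene start, 5′ to 3′ on the gene's strand, from RefSeq GRCm38.p6, the same build as mm10. Capitals mark matches on either strand to GGGNGGGG, a motif bound by KLF and SP factors.
Spint2 (chr7:29281978-29282227, minus strand): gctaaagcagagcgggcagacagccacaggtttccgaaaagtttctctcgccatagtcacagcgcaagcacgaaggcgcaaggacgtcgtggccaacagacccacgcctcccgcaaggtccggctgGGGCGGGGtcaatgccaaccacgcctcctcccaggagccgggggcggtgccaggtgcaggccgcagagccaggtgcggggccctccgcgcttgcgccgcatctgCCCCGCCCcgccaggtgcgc
Gpr37 (chr6:25689981-25690230, minus strand): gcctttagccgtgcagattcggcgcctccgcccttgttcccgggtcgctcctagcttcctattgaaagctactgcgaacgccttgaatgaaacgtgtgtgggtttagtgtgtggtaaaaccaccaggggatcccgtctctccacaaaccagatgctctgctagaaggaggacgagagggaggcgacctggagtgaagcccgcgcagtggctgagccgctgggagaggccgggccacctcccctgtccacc
Mdga2 (chr12:67222550-67222799, minus strand): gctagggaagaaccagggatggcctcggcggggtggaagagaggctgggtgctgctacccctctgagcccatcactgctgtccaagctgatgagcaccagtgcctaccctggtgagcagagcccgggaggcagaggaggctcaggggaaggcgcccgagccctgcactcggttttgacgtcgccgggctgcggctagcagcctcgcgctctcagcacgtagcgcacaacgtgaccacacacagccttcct
Efs (chr14:54926789-54927038, minus strand): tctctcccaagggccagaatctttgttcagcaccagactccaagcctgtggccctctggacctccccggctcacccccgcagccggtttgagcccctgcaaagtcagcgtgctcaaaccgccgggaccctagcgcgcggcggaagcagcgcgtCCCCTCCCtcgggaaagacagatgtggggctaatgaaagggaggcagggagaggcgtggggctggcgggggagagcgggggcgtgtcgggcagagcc
Pdlim4 (chr11:54069018-54069267, minus strand): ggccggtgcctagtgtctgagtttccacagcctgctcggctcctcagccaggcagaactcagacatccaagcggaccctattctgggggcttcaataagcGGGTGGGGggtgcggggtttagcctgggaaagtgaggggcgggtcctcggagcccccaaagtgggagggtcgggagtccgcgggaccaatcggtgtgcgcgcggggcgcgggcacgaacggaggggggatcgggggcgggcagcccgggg
Stc2 (chr11:31370062-31370311, minus strand): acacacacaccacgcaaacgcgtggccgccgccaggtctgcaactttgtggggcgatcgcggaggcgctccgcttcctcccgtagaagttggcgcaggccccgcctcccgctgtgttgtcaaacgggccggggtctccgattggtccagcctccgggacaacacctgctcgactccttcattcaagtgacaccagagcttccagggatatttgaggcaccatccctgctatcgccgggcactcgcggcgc
Gjb2 (chr14:57104703-57104952, minus strand): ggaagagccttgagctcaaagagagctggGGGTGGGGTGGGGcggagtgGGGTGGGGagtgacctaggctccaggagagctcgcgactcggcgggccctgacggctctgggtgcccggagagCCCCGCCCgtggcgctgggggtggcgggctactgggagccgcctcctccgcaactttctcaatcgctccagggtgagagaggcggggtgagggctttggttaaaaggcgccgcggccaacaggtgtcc
Trim71 (chr9:114564370-114564619, minus strand): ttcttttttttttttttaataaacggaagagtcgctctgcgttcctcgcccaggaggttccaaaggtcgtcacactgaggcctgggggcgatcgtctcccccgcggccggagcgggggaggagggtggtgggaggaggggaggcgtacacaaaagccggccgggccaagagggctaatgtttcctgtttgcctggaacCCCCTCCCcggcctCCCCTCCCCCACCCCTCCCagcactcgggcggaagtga
In this set Spint2, Gjb2 and Trim71 carried several matches, Efs and Pdlim4 carried 1 each, and Gpr37, Mdga2 and Stc2 carried none. The 8 stretches held between 60.8% and 69.6% G and C. Every region had a peak in the 3 infant libraries and none in the 6 adult libraries, as the rule demands.

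The values that chose the regions are given here as a description. In the infant libraries the regions held 12467, 12538 and 12642 peaks, which made 13.2%, 13.9% and 14.2% of the peaks of infant replicates 1, 2 and 3 but only 9.51%, 9.49% and 9.51% of their covered length. The peaks were narrow. Their median widths were 365, 334 and 319 bp, against 766, 728 and 710 bp in regions open in all 9 libraries. The regions were 150 to 2229 bp long, with a median of 439 bp, and covered 5.98 Mb in all. In all 3 lists 6920 of them (56.2%) had peaks narrower than the library's median peak, and 1791 (14.5%) had peaks wider than it. Among regions open in all 9 libraries, 73.8% were wider than the median in all 3 infant lists. The width of a region's peak went with its width in another infant library, with a Spearman rank correlation across the 12315 regions of 0.685, 0.573 and 0.574 for the 3 pairs of libraries, against 0.888 to 0.919 for shared regions. The paired values share position and base composition and are no independent replicates.

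Just outside the rule lay 4076 regions with a peak in all 3 infant and in 1 adult library, and 8327 with a peak in 2 infant and in no adult library. The extra adult peak came from a young adult library in 3209 regions and from a mature adult library in 867. It was a narrow peak, with a median width between 178 bp (mature adult replicate 1) and 214 bp (young adult replicate 1). The missing infant peak was absent from infant replicate 1 in 1369, from replicate 2 in 2510 and from replicate 3 in 4448 regions. When the 59793 widest peaks were taken from every library, so that all lists were equally long, the rule kept 4859 regions. Of these, 4160 (85.6%) overlapped a region of the full set, which is 33.8% of that set.

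**Figure D1:**
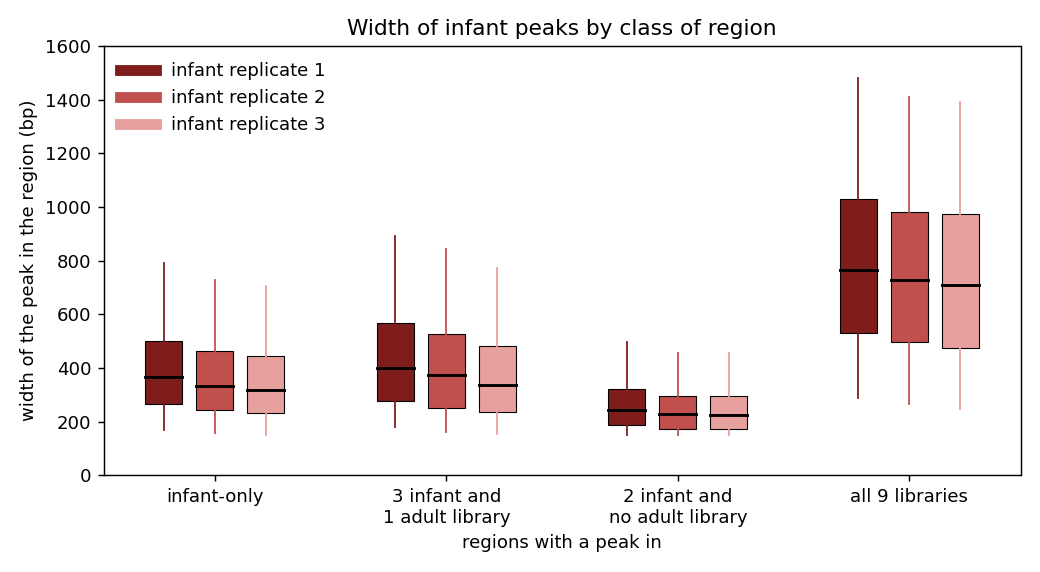
Width in bp of the peak that each infant library had in a region, by class of region on the horizontal axis; boxes span the quartiles, the black line is the median and thin lines run from the 5th to the 95th percentile. Infant-only regions, with medians of 319 to 365 bp, sit below regions open in all 9 libraries, with medians of 710 to 766 bp.

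Libraries that took no part in the choice give a view that the rule did not fix. Regions were chosen on 2 infant and 5 adult libraries and then read in the infant and the adult library left out, for all 18 such pairs. Between 73.5% and 90.7% of the chosen regions had a peak in the infant library left out, and between 1.35% and 9.25% had one in the adult library left out. By library, the mean was 90.2% for infant replicate 1, 83.4% for replicate 2 and 73.8% for replicate 3. It was 7.87%, 9.13% and 5.19% for the young adult and 1.41%, 2.58% and 2.63% for the mature adult libraries. All infant libraries were far above all adult libraries, and all young adult libraries above all mature adult libraries. Infant replicates 1, 2 and 3 also had the longest to the shortest infant lists, and the adult lists were shorter still. The part of list length in these shares was not tested. The 18 pairs reuse the same 9 libraries, so no p is given. No share over all regions was computed for the infant library left out. Where all 6 adult libraries had a peak, 41144 regions had one in all 3 infant libraries and 900 in only 2. With no adult peak those numbers were 12315 and 8327, so a missing infant peak was more common there. Of all 72335 regions open in the 3 infant libraries, 63.2% to 75.3% had a peak in a given adult library.

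Reading 1 adult age after choosing on the other gave a further comparison. Of 13488 regions with a peak in all 3 infant and no young adult library, 2.57%, 4.44% and 4.32% had a peak in mature adult replicates 1, 2 and 3, against 63.2%, 69.6% and 68.4% of all 72335 regions open in the 3 infant libraries. Of 18294 regions with a peak in all 3 infant and no mature adult library, 19.3%, 21.1% and 11.7% had a peak in young adult replicates 1, 2 and 3, against 74.5%, 75.3% and 69.6% of all. Absence in the young adult libraries went with absence from all 3 mature adult libraries for 91.3% of regions, against 25.3% of all 72335. Absence in the mature adult libraries went with absence from all 3 young adult libraries for 67.3%, against 18.6% of all. The mature adult lists, with 59793 to 64208 peaks, were shorter than the young adult lists, with 67550 to 68366. The part of this in the 2 shares was not tested.

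**Figure D2:**
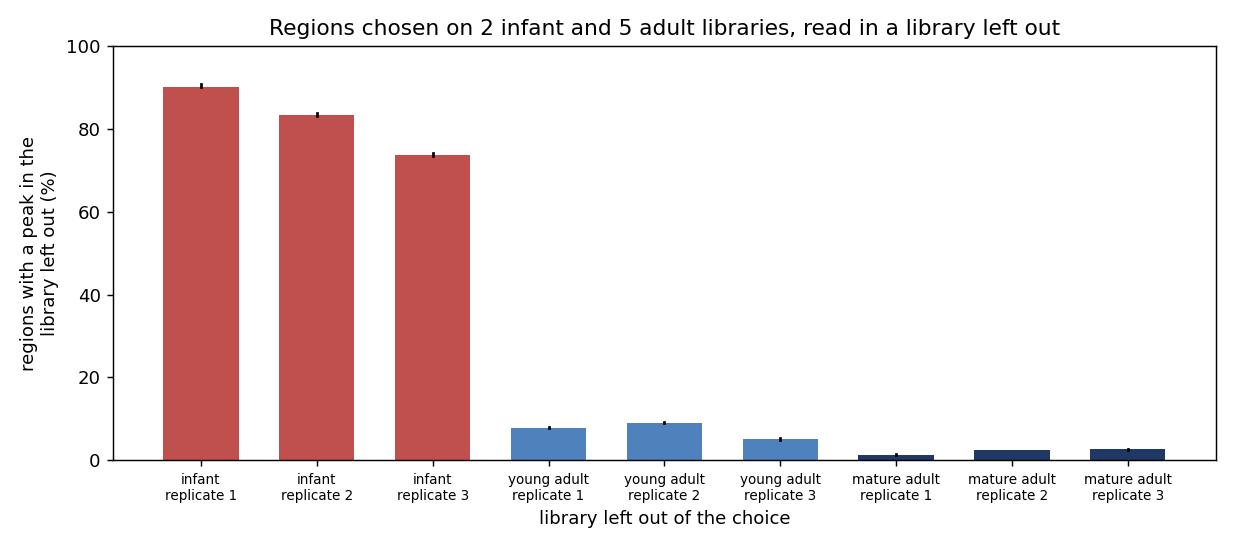
Percent of regions with a peak in a library left out of the choice (vertical axis), for each of the 9 libraries; bars are means over the pairs that leave the library out (6 for an infant, 3 for an adult library) and black lines span the lowest to the highest pair. Infant libraries reach 73.8% to 90.2%, young adult libraries 5.19% to 9.13% and mature adult libraries 1.41% to 2.63%.

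The regions lay mostly away from gene starts. Only 7.16% had their centre within 1 kb of an end of a protein-coding gene, against 12.2% of all merged regions and 25.1% of the regions open in all 9 libraries. Measured to the nearest start in the RefSeq promoter table, which holds no start on chromosome 18, the median distance was 25.1 kb, against 22.3 kb for all and 13.0 kb for shared regions. Of the 11812 regions with such a distance, 7.02% were within 1 kb of a start, 20.8% at 1 to 10 kb, 56.2% at 10 to 100 kb and 16.0% farther away. They lay inside a gene in 50.5% of cases, less often than all merged regions (57.0%), shared regions (61.7%) or the 871 regions open in all adult and no infant libraries (66.2%). For 14.1% of them no protein-coding gene end lay within 100 kb. The table gives gene bounds without exons, so introns, exons and untranslated regions were not distinguished. Their share of a chromosome's merged regions was lowest on the X chromosome, with 225 of 3392 (6.63%), apart from the Y, where none of 8 was infant-only. It was highest on chromosome 18, with 503 of 4589.

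Infant-only regions lay farther from shared regions than other classes did. The nearest region open in all 9 libraries was 18.7 kb away at the median, and 34.9% had one within 10 kb. For the 871 adult-only regions that distance was 4.15 kb, and 70.4% had one within 10 kb. It was 9.36 kb for the 28765 variable regions, which had a peak in at least 1 infant and 1 adult library but not in all 9. The nearest other infant-only region was 31.8 kb away at the median, and 25.1% had one within 10 kb. The classes differ in size, which by itself alters distances within a class, so the distance to shared regions is the more comparable value.

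Among 32851 promoter windows of 300 bases (250 before to 50 after a start), 622 were overlapped by an infant-only region, or 1.89%. They belonged to 573 symbols, of which 394 are protein-coding genes. Their base composition lay between that of promoters open at every age and that of promoters without any region. The median GC content was 58.3%, against 61.7% in windows overlapped by shared regions and 47.3% in windows with no region. The ratio of observed to expected CpG dinucleotides had a median of 0.52, against 0.782 and 0.203. A ratio of at least 0.6, a usual mark of CpG islands, was found in 41.3% of the infant-only windows, 75.1% of shared windows and 35.8% of all windows. The 1523 windows overlapped by variable regions had nearly the same values, with a GC content of 58.0%, a CpG ratio of 0.531 and 42.4% at or above 0.6.

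The windows were searched on both strands for 26 short motifs, and examples picked after their values were seen are given here. GGGNGGGG was in 49.2% of infant-only windows, 50.2% of shared and 33.2% of all windows. CCGGAAG, the form of the ETS factor motif common in promoters, was in 5.47% of infant-only, 18.8% of shared and 8.86% of all windows, while the other ETS form, CAGGAAG, was in 12.4%, 12.6% and 13.3%. The E-box CAGCTG was in 20.9% of infant-only, 14.6% of shared and 16.3% of all windows. The E-box CAGATG was in 17.4%, 10.7% and 17.2%. The GATA motif AGATAA was in 7.88%, 5.79% and 11.2%, the TATA motif TATAAA in 9.65%, 6.26% and 13.6%, and the CTCF core AGGGGGC in 15.6%, 17.0% and 10.6%. The NFI motif TTGGCA was in 15.3%, 10.6% and 14.1%, the SOX motif ACAATGG in 3.7%, 2.03% and 3.66%, and the AP-1 motif TGANTCA in 7.23%, 4.42% and 7.81%. Variable windows stood close to infant-only windows for CCGGAAG (4.92%) and GGGNGGGG (46.4%). A match is a run of letters and no proof of binding, windows of neighbouring starts can overlap, and the motifs differ in how much G and C they hold. Distant regions could not be searched, since no genome sequence was used here.

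The 12 promoter-overlapping regions with the widest peaks were ranked by the narrowest of their 3 infant peaks. Spint2, a membrane-bound inhibitor of serine proteases, came first, with a region at chr7:29281108-29282544 and peaks of 1405, 1308 and 1349 bp in infant replicates 1, 2 and 3. Gpr37, an orphan G protein-coupled receptor, followed at chr6:25688985-25690666 with 1617, 1479 and 1256 bp. All 6 of these widths exceed the 95th percentile of infant-only peaks in their library, which was 792, 726 and 704 bp. Mdga2, an anchored immunoglobulin-type adhesion protein, stood at chr12:67221317-67223164 with 1797, 1180 and 1173 bp. Efs, an adaptor that binds Src-type kinases, stood at chr14:54925699-54927199 with 1500, 1333 and 1167 bp. Pdlim4, a PDZ and LIM domain protein of the actin skeleton, had peaks of 1181, 1106 and 1101 bp at chr11:54068266-54069463. Stc2, a secreted glycoprotein of the stanniocalcin family, had 1483, 1061 and 1206 bp at chr11:31368842-31370339. The remaining members were a start of LOC115489466 within Slc1a2, Gjb2 (the gap junction protein connexin 26), Trim71 (an RNA-binding protein of early development), Trpc6 (a calcium-permeable channel), Efcc1 and Susd4, with narrowest peaks between 964 and 1044 bp. The windows of Gjb2 and the neighbouring Gm32912 were overlapped by the same region, so that region cannot be given to either gene alone.

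Of the 1005 hairpins in the RefSeq table of microRNAs, 8 (0.796%) were overlapped by an infant-only region and 83 (8.26%) by a shared region. Mature sequences of those at Mir199b and Mir202, picked after their values were seen as examples of better known microRNAs, are printed with the seed (bases 2 to 8) in capitals.
mmu-miR-199b-3p (chr2:32318524-32318545, plus strand): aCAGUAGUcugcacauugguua
mmu-miR-202-3p (chr7:139957695-139957716, minus strand): aGAGGUAUagcgcaugggaaga
mmu-miR-202-5p (chr7:139957732-139957752, minus strand): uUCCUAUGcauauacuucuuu
The seeds differ from each other. The Mir199b region, chr2:32317677-32318569, lies inside Dnm1 and had peaks of 892, 844 and 371 bp in infant replicates 1, 2 and 3. It also covers Gm23363, the hairpin of mmu-miR-3154. The Mir202 region, chr7:139957366-139957777, had peaks of 372, 392 and 182 bp and also covers Mir7686. In both, replicate 3 had the narrowest peak. A peak over a hairpin does not measure the microRNA.

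Each region was assigned to the protein-coding gene that held its centre, or failing that to the closest gene up to 100 kb away, and 10577 regions (85.9%) could be assigned. Of all 111778 assigned merged regions 9.46% were infant-only, and 5531 of 17094 genes with a region had at least 1, or 32.4%. Most of these genes, 3233, had exactly 1, while 357 had at least 5, 44 had at least 10 and the largest number was 20. Of the assigned infant-only regions 8763 (82.8%) went to genes that also held a region open in all 9 libraries, and 1197 genes had an infant-only region but no shared one. The median share per gene was 0.0% over all genes with a region. For 22 lists of genes the share of infant-only regions is described beside these figures, with no test. Lists share some genes, and assignment by distance can name a gene that the region does not act on.

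**Figure D3:**
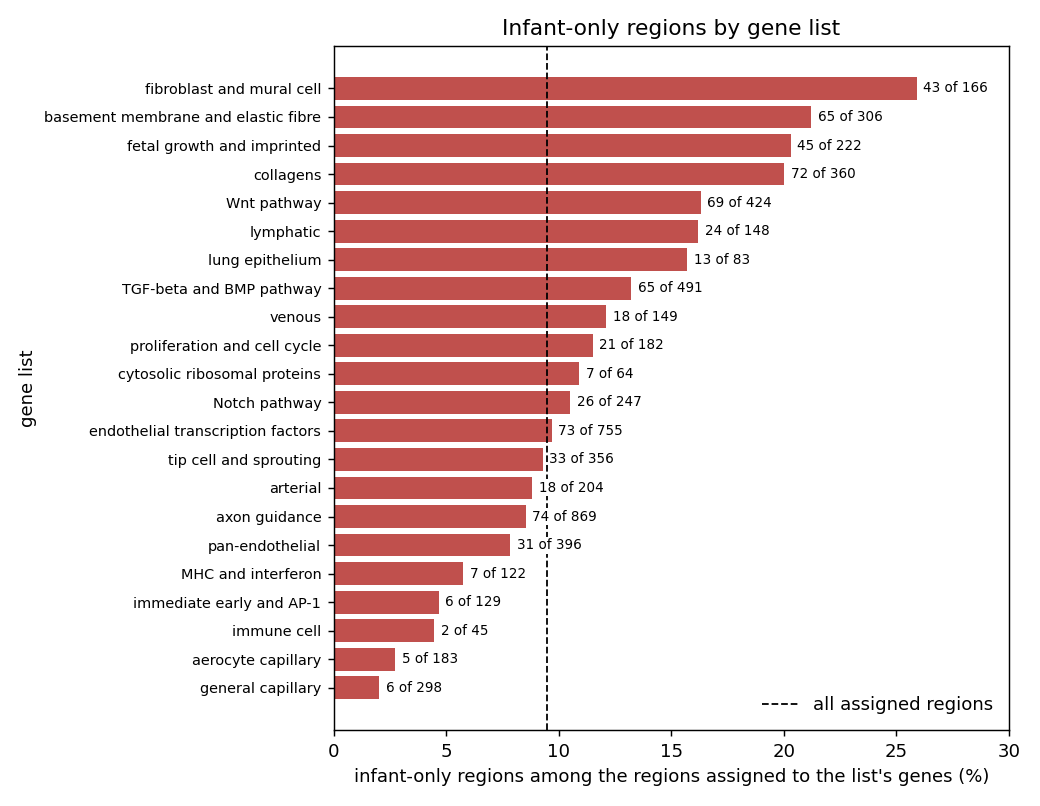
Percent of the merged regions assigned to each list's genes that were infant-only (horizontal axis), for 22 gene lists; the text at each bar gives the number of infant-only regions of all regions, and the dashed line marks the 9.46% over all assigned regions. Bars run from 2.01% for general capillary genes to 25.9% for fibroblast and mural cell genes.

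Infant-only regions were also present at genes that define endothelial cells. Of 396 regions at 16 pan-endothelial genes 31 (7.83%) were infant-only, with a median of 4.17% per gene and at least 1 at 11 of the genes. Relative to the share of all assigned regions this list stood at 0.827, or at 0.394 with equally long peak lists and 0.406 when a region's centre had to lie inside the gene. Of 755 regions at 26 endothelial transcription factor genes 73 (9.67%) were, at 17 genes. The shares were 8.82% at arterial genes, 9.27% at tip cell genes, which guide sprouts, and 12.1% at venous genes. Fli1, an ETS factor required for vessel development, had the most infant-only regions in the first list. By share of a gene's regions Sox17 was higher, with 22.2% against 17.1% for Fli1. Fli1 had 7 infant-only regions between 32477918 and 32582602 on chromosome 9, with 2 of them inside the gene and peaks 153 to 669 bp wide. Counting all its regions, Fli1 had a peak in 34, 33 and 30 in the infant, 16, 21 and 18 in the young adult and 15, 16 and 16 in the mature adult libraries, a separation that its 7 infant-only regions help to fix. Without these the infant libraries had 27, 26 and 23, still above the 15 to 21 of the adult libraries. Kdr, the main receptor for VEGF, had 6 infant-only regions of 40. With these counted, 36, 35 and 36 were open in the infant and 25 to 29 in the adult libraries. With these left out, the lowest infant count of Kdr is no higher than its highest adult count. Mecom, a zinc finger factor linked to arterial endothelium, had 14 of 73, of which 11 lay inside the gene. It had a peak in 61, 51 and 48 regions in the infant, 24, 25 and 24 in the young adult and 21, 17 and 18 in the mature adult libraries. Without its infant-only regions Mecom had 47, 37 and 34 in the infant and 17 to 25 in the adult libraries. Foxp1 had 11 of 136 and the homeobox gene Meis2 8 of 32. Sox17, an arterial transcription factor, had 4 of 18, all of them outside the gene at 5.4 to 52.8 kb, and without these its libraries overlapped, with 12 in each infant and 10 to 13 in the adult libraries. Of the other leading genes, Gja5 (the gap junction protein connexin 40) had 3 of 11, Fbln5 3 of 14, Igfbp3 4 of 7, the adhesion molecule Vcam1 3 of 18 and the venous transcription factor Nr2f2 3 of 19.

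Genes of the mature lung capillaries carried few infant-only regions. General capillary genes held 6 among 298 regions (2.01%), at 4 of 12 genes, and aerocyte genes, which mark the large capillary cells of gas exchange, held 5 among 183 (2.73%), at 3 of 12 genes. Kit, a receptor of general capillary cells, had 2 of 48, and was open in 31, 32 and 30 regions in the infant, 28, 26 and 19 in the young adult and 18, 22 and 26 in the mature adult libraries. With the 2 left out, the lowest infant count of Kit is no higher than its highest adult count. Ednrb, the endothelin receptor B, had 2 of 27. It had 18, 17 and 16 open regions in the infant, 15, 15 and 14 in the young adult and 16, 17 and 17 in the mature adult libraries, so that ages overlapped. Cd93 had 2 of 27, Chst1 2 of 17, Aplnr 1 of 14 and Kitl 1 of 56. The ratio to the share of all assigned regions was 0.213 for general capillary genes, and 0.0531 with gene ends within 10 kb. It was 0.289 for aerocyte genes, and 0.137 with equally long peak lists. Summed over the 12 aerocyte genes, the libraries had 107 to 113 regions open in the infant, 104 to 114 in the young adult and 102 to 116 in the mature adult group.

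Lymphatic genes held 24 among 148 regions (16.2%), 11 of them at Itga9. This integrin subunit, which takes part in the forming of lymphatic valves, carried all 11 inside its body on chromosome 9, between 118609584 and 118877879. Its regions open were 42, 37 and 40 in the infant, 19, 14 and 14 in the young adult and 12, 13 and 11 in the mature adult libraries. The infant counts fell to 31, 26 and 29 when its infant-only regions were left out. The widest member, chr9:118876869-118877879, had peaks of 1010, 707 and 802 bp. Nrp2, which binds semaphorins and VEGF-C, had 5 members, and Prox1, which sets lymphatic identity, had 3 of 8. With equally long peak lists the lymphatic ratio to all assigned regions was 3.15 in place of 1.71. Robo1, a receptor for Slit guidance cues, had 8 of 44, with 20, 18 and 25 open regions in the infant, 6, 6 and 12 in the young adult and 8, 7 and 6 in the mature adult libraries. Without the infant-only regions its libraries overlapped, with 10 to 17 in the infant and 6 to 12 in the adult group. Sema6d had 8 of 80 and Plxnc1 6 of 18. The axon guidance list as a whole, with 74 of 869 (8.52%), was near the share of all regions.

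Of the signalling pathways, Wnt genes held 69 infant-only regions of 424 (16.3%), with a median of 18.4% per gene and at least 1 at 19 of 24 genes. TGF-beta and BMP genes held 65 of 491 (13.2%) at 17 of 24, and Notch genes 26 of 247 (10.5%) at 10 of 15. The Notch ratio to all assigned regions, 1.11, went below 1 with equally long peak lists, to 0.57. Dkk2, a secreted modulator of Wnt receptors, had 9 of its 22 regions among them, 7 outside and 2 inside the gene, and 1 of these, chr3:132085148-132085889, overlapped the gene start. Peaks there were 645, 301 and 222 bp wide in infant replicates 1, 2 and 3. Dkk2 was open in 18, 17 and 16 regions in the infant and in 4 to 6 in the adult libraries. Leaving out its infant-only regions gave 9, 8 and 7 in the infant libraries. Tcf7l2, a transcription factor of the Wnt pathway, had 8 of 34, and Ror1, a Wnt receptor, 6 of 27. In the TGF-beta list Smad3, which carries the signal into the nucleus, had 9 of 31, and was open in 28, 22 and 24 infant, 9, 12 and 6 young adult and 6, 7 and 9 mature adult regions. Apart from its infant-only regions Smad3 had 19, 13 and 15 open in the infant libraries. The ligand gene Tgfb2 had 8 of 22 and Ltbp1, which holds the latent ligand in the matrix, 8 of 41. In the Notch list the receptor Notch2 had 5 of 17, all inside the gene, the target Hes1 5 of 40 and the co-activator Maml2 4 of 60.

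Genes of the extracellular matrix were among those with the largest shares. Basement membrane and elastic fibre genes held 65 of 306 regions (21.2%) at 18 of 23 genes with a region, and collagen genes 72 of 360 (20.0%) at 20 of 22 genes, with a median of 25.0%. Lamb1, a chain of the laminins of basement membranes, had 9 of 18 and no shared region. It was open in 13, 13 and 14 regions in the infant, 0, 1 and 0 in the young adult and 1, 1 and 0 in the mature adult libraries. The infant counts were 4, 4 and 5 with its infant-only regions left out. Its members included the gene start (chr12:31264926-31265882, with peaks of 956, 541 and 153 bp) and a region 79.9 kb outside the gene with peaks of 2030, 1034 and 875 bp. Col5a1, a fibrillar collagen chain, had 9 of 31, 8 of them inside the gene, and was open in 24, 21 and 19 infant regions and in 3 or 4 in every adult library. With its infant-only regions left out, the infant libraries had 15, 12 and 10. Fbn1, the main microfibril protein, had 7 of 28, Col14a1 7 of 22 and Col25a1 7 of 28. An infant-only region overlapped a promoter window of 3 of 18 collagen genes with a window, Col1a2, Col6a1 and Col11a1. In the other list it was 3 of 15, Fbln1, Lama2 and Lamb1. Over all protein-coding genes with a window it was 394 of 17492.

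Genes of fetal growth and imprinting held 45 of 222 regions (20.3%). Hmga2, a chromatin protein of embryonic and fetal cells, had 7 of 15, with 14, 12 and 13 regions open in the infant, 3, 4 and 3 in the young adult and 1, 3 and 1 in the mature adult libraries. Its infant counts were 7, 5 and 6 when the infant-only regions were left out. Igf1, the growth factor, had 7 of 19 and its receptor Igf1r 6 of 54. The promoter windows of Gpc3, Igf2bp2 and Meg3, 3 of the 18 genes with a window, were overlapped by infant-only regions. Cell cycle genes held 21 infant-only regions of 182 (11.5%), at 11 of 29 genes. An infant-only region overlapped a promoter window at 0 of the 22 genes with a window, and a shared region at all 22. Among protein-coding genes with a window, an infant-only region did so at 394 of 17492. At so low a share, 22 genes are too few for a conclusion from the 0. Mki67, a marker of dividing cells, had 4 infant-only regions, all of them 74.7 to 93.4 kb from the gene, Cdk1 had 3 of 8 and Mycn 3 of 14. The cell cycle ratio to all assigned regions turned from 1.22 to 0.783 with gene ends within 10 kb and to 0.654 with the centre inside the gene. Ribosomal protein genes had 7 of 64 (10.9%), immediate early and AP-1 genes 6 of 129 (4.65%) and MHC and interferon genes 7 of 122 (5.74%). Their leading genes were Rpl11 (3 of 7), Rps24 (2 of 8) and Rpl27 (1 of 2), then Fosl2 and Nr4a3 (each 2 of 10) and Atf3 (1 of 11), and Irf8 (4 of 25), H2-K1 (1 of 4) and Gbp4 (1 of 6). The ribosomal ratio ran from 0.303 to 1.73 over the alternatives, on both sides of its 1.16, that of immediate early genes from 0.191 to 0.894 around 0.492, and that of MHC and interferon genes from 0.219 to 0.538 below 0.606.

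**Figure D4:**
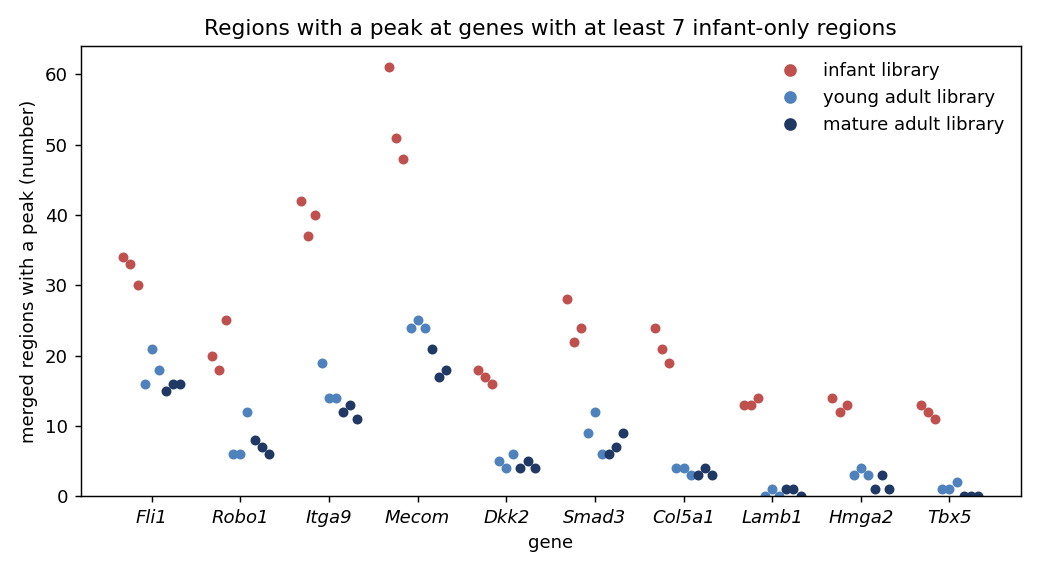
Number of merged regions with a peak (vertical axis) in each of the 9 libraries at 10 genes. Each had the most infant-only regions in a list, and at least 7. Other genes with at least 7, such as Foxp1 and Meis2, are not drawn. Each point is a library, coloured by age. All infant libraries lie above all adult libraries at every gene, as choosing genes by infant-only regions favours; without these regions the libraries of Robo1 overlap.

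Summed markers of fibroblasts and mural cells and of lung epithelium had more open regions in the infant than in the adult libraries, while immune markers overlapped between ages. The fibroblast and mural list had the largest share, 43 of 166 regions (25.9%) at 13 of 19 genes with a region, with a median of 20.0% per gene. Its genes had 135, 121 and 124 regions open in the infant, 48, 51 and 46 in the young adult and 44, 44 and 43 in the mature adult libraries. The rule puts the 43 infant-only regions into the infant counts alone, and without them these were 92, 78 and 81. At 0 in all libraries of the infant, young adult and mature adult group were 1, 3 and 4 of 20 genes. Tbx5, a T-box factor of heart, limb and lung mesenchyme, had the most, 8 of 14 regions. It was open in 13, 12 and 11 infant regions, in 1, 1 and 2 young adult regions and in none of the mature adult libraries. With its infant-only regions left out, the infant libraries had 5, 4 and 3. Col1a2 had 6 of 15 and Col1a1 5 of 12. An infant-only region overlapped a promoter window of 5 of the 13 genes with a window, Col1a2, Cspg4, Des, Notch3 and Twist2. A shared region did so at 1. Of 8 defining markers of these cells none was at 0 in all libraries of an age. Pdgfrb was at 0 in young adult replicate 2 and mature adult replicate 3. Summed, these 8 had 64 to 71 regions open in the infant, 32 to 36 in the young adult and 30 to 32 in the mature adult libraries, while 10 defining endothelial markers had 221 to 243, 185 to 207 and 167 to 197. The infant sums count 18 infant-only regions for the 8 markers and 25 for the endothelial ones. With those left out, the endothelial sums of infant and adult libraries overlap. Infant lists were also longer. As a share of a library's regions, the 16 pan-endothelial genes had 0.323% to 0.335% in infant and 0.367% to 0.407% in adult libraries. The fibroblast and mural list had 0.139% to 0.147% and 0.0726% to 0.0792%. These shares count the infant-only regions. Acta2 and Myh11 of smooth muscle had no infant-only region, and Myh11 was open in 7 regions in each infant library and in 7 or 8 in each adult one.

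Lung epithelial genes held 13 of 83 (15.7%), 3 each at Cdh1, Elf5 and Hopx. The 6 defining epithelial markers had 32 to 41 regions open in the infant, 15 to 24 in the young adult and 17 to 19 in the mature adult libraries, with Sftpc at 0 throughout. The infant counts of these 6 include 7 infant-only regions. Immune genes held 2 of 45 (4.44%), 1 at Csf1r and 1 at Ptprc, and their 6 defining markers had 12 or 13, 8 to 13 and 8 or 9 regions open, with Cd68 at 0. The part of other cell types in the infant-only regions was not tested. The 3 lists of other cells held 58 of the 10577 assigned infant-only regions (0.548%), against 294 of all 111778 assigned regions (0.263%). The lists hold a small part of such cells' genes, so these shares do not measure how many infant-only regions could come from them.

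Among the 3226 genes with at least 10 assigned regions the median share of infant-only regions was 8.33%. In 856 of them it was 0, and in 26 at least 50%. Fbln1, a fibulin of basement membranes and elastic matrix at chr15:85205949-85286294, had the largest share, 7 of 10 (70.0%). It was open in 10, 10 and 9 regions in the infant, 1, 2 and 1 in the young adult and 1, 1 and 1 in the mature adult libraries. Kcnd3, a voltage-gated potassium channel at chr3:105451890-105674002, followed with 7 of 11. Lep, which encodes the hormone leptin and lies at chr6:29060221-29073876, had 6 of 10, and was open in 10 regions in every infant library and in 2 to 4 in adult libraries. Esrrb, an orphan nuclear receptor known from pluripotent cells (chr12:86361117-86521628), had 7 of 12. Slco2b1, a transporter of organic anions, had 8 of 14, with 13, 11 and 11 regions open in the infant, 3, 4 and 0 in the young adult and 1, 1 and 0 in the mature adult libraries. The other genes of the first 12 were Tbx5, Ube2cbp (10 of 18), Tmem132c (11 of 20), Ctnnbl1, Prdm8, Dgkg (a diacylglycerol kinase) and Edar (the ectodysplasin receptor of skin appendages), with shares of 53.8% to 57.1%. Of these 12 genes, Esrrb, Slco2b1 and Tbx5 had no region open in all 9 libraries. These genes were ranked by the values that define the regions, so no test applies. The infant counts given here include the infant-only regions, which the rule puts into the infant libraries alone. With those left out, the lowest infant count of Fbln1, Lep and Slco2b1 is no higher than their highest adult count.

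Some infant-only regions followed each other along a chromosome with no other merged region between them. Of the 12315 regions, 8594 stood alone, 3721 (30.2%) were in such runs of at least 2 and 1157 (9.4%) in runs of at least 3. The share in runs of at least 2 was 43.8% for the more numerous variable regions and 4.71% for the 871 adult-only regions. There were 22 runs of at least 5. The longest had 8 regions over 150 kb at chr7:83392223-83542136, of which 3 were assigned to Tmc3 and 5 had no gene end within 100 kb. Runs of 6 lay at 1700025G04Rik (27.8 kb), Arhgef10l (43.8 kb), Tenm4, a teneurin of cell adhesion (55.5 kb), between Rab4a and Rhou (57.9 kb), at Slc38a4, an amino acid transporter (58.7 kb), at Ube2cbp (78.7 kb) and at Esrrb (79.0 kb). All 6 regions of the runs at Arhgef10l, Tenm4 and Esrrb lay inside the gene. The runs did not all stand in otherwise empty stretches. At Esrrb the next region was 0.156 kb before the run, and at 1700025G04Rik 8.6 kb before and 25.8 kb after it.

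**Figure D5:**
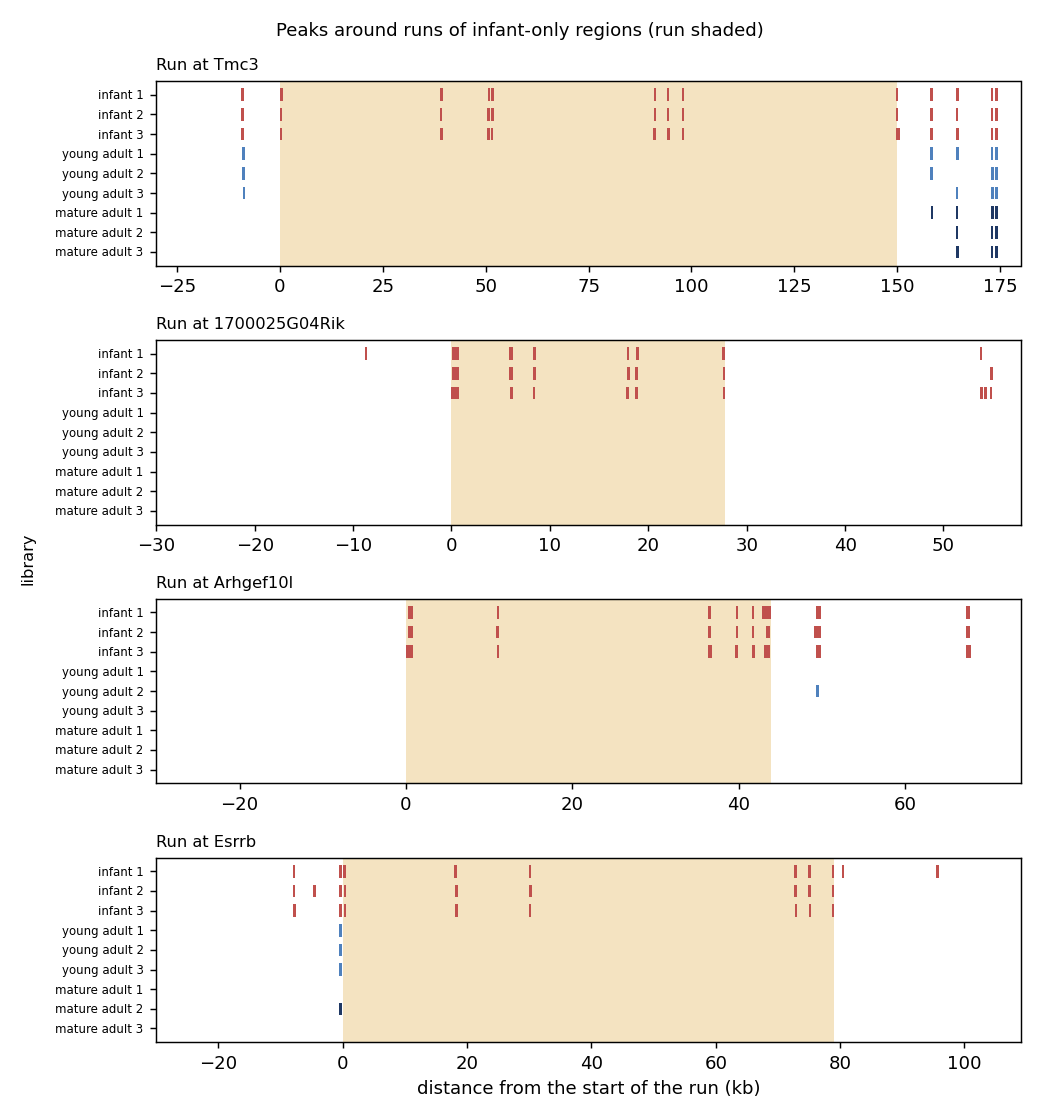
Peaks of each library (rows, coloured by age) around 4 runs of infant-only regions, by distance in kb from the start of the run (horizontal axis); the run is shaded and narrow peaks are drawn at a smallest visible width. Inside the shaded runs all peaks belong to the 3 infant libraries, while adult peaks flank the runs at Tmc3, Arhgef10l and Esrrb.

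The region with the widest peaks by the narrowest of the 3 was at the Fbn2 gene on chromosome 18, with peaks of 2134, 1943 and 1835 bp in infant replicates 1, 2 and 3. The next lay deep inside Rad51b, a gene of DNA repair, at chr12:79511305-79512843, and was 1497, 1499 and 1536 bp wide at 214723 bp from the gene's start. Of the first 10, 4 had a gene end within 1 kb: those at Fbn2, Spint2, Gpr37 and Bnc2. The other 6 lay 50954 bp or more from any end, and 3 of these had no assigned gene.

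Regions outside the infant-only set were compared by their distance to it. The infant-only regions were chosen by the age groups and stayed the same in every permutation. Variable regions were classed from the same peaks. The exact p-values below may therefore be partly fixed by that choice, and no conclusion is drawn from them. Of the 41144 regions open in all 9 libraries, 6097 lay within 10 kb of an infant-only region. In every library their peaks were narrower than those of the 35047 farther away, with a ratio of median widths of 0.951 ± 0.0019 (SD, n = 3) in infant, 0.941 ± 0.00997 in young adult and 0.925 ± 0.00412 in mature adult libraries. All infant ratios (0.95 to 0.953) were above all adult ones (0.92 to 0.948). The infant minus adult difference was 0.0182 (exact permutation test over 84 choices of 3 of 9 libraries, two-sided, p = 0.0476, adjusted over 2 measures 0.0476). Of a library's variable regions, 18.4% ± 0.235 lay within 10 kb of an infant-only region in infant, 17.5% ± 0.928 in young adult and 15.6% ± 0.712 in mature adult libraries (SD, n = 3). The difference between infant and adult was 1.83 percentage points (exact permutation p = 0.0476, adjusted 0.0476), with values of 18.1% to 18.6% in infant and 14.9% to 18.1% in adult libraries. Young and mature adult libraries gave p = 0.1 in both exact tests, the smallest that 3 against 3 allows. Neither difference is firm: the first turned to -0.00687 with near meaning 5 kb (exact p = 0.0714) and to -0.0106 when a peak had to cover 50% of a region (exact p = 0.0357). The second missed the threshold without any 1 of the infant libraries, of young adult replicates 1 and 2 or of mature adult replicate 2 (1.75 to 2.09 percentage points, exact p 0.0714 to 0.214). Both missed it with the replicate number as a block (exact permutation p = 0.0741 and 0.111).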

How the data were processed

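Peak positions were read from 9 peak lists, 1 per library, that the authors deposited. Per the file headers a row holds a peak's chromosome, start and end, without any measured height. Per the submitters' processing notes cutadapt, Bowtie2 and Picard were used on build mm10. How peaks were called, and at which threshold, is not given in the sources used here. An interval can fill several rows of a list and was counted once. Whether starts count from 0 or 1 is not stated, so positions may be off by 1 bp.

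Intervals of all lists were merged at an overlap of at least 1 bp, and a region was open in a library if any peak of that library overlapped it; width means its widest peak there. Genes came from 21887 protein-coding RefSeq genes of GRCm38.p6, promoter windows and microRNAs from RefSeq tables of that build; 396 of 399 listed symbols were found. The regions, lists and tests were chosen with earlier results of these data known. Named were the 10 regions with the widest peaks, the 12 widest at promoters, the 8 longest runs, the 12 genes with the largest share of infant-only regions among those with at least 10 regions, and up to 3 genes with most such regions per list; other names were chosen after their values were seen. Exact permutation tests compared 2 measures per library, with the infant-only regions kept as chosen by the age groups. Whether replicate numbers pair libraries is not known, so the number was used as a block only as an alternative. Alternatives changed the merging, the list length, the distances, the gene assignment and the libraries used. Tools were scipy 1.17.1, numpy 2.4.6 and pandas 2.3.3 in Python 3.11.15, with matplotlib 3.10.9 for figures, and merging and permutation were tested on simulated data.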

Additional observations from a re-analysis of the deposited data

How the results depend on the processing

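Without depth or peak heights, list length limits every count. With equally long lists the number of infant-only regions was 4859, and leaving out 1 library gave 12501 to 16847. The share near a gene end was 8.15% with equal lists, 7.78% when a peak had to cover 50% of the region, 18.6% within 5 kb and 6.97% to 7.64% without 1 library. Inside a gene lay 48.0% with equal lists and 50.5% to 51.9% without 1 library. Within 10 kb of another infant-only region lay 13.9% with equal lists, 27.9% with 50% cover, 26.1% without mature adult replicate 1 and young adult replicate 3, the adult libraries with the narrowest shared peaks, and 25.3% to 31.0% without 1 library; 15.9% lay within 5 kb and 44.0% within 25 kb. The share open in an infant library left out was 64.1% to 83.3% without a further library.

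The width ratio difference was 0.0151 to 0.0274 without 1 library (exact p 0.0179 to 0.0357), 0.0293 without those 2 libraries (exact p = 0.0571), and reversed to -0.0106 with 50% cover (exact p = 0.0357) and -0.00687 with near as 5 kb (exact p = 0.0714). The difference in variable regions was 1.75 to 2.09 without 1 library (exact p 0.0357 to 0.214), 2.06 without those 2 (exact p = 0.114), 1.79 with gaps up to 100 bp merged (exact p = 0.0595), 1.68 with 50% cover (exact p = 0.0833) and 2.65 with near as 25 kb (exact p = 0.0595). Equally numbered libraries had correlations of -0.0503 to 0.135, against -0.108 to 0.0843 for others. These ranges overlap, and whether the numbers pair libraries is not known. With the replicate number as a block the differences stayed 0.0182 (exact p = 0.0741) and 1.83 (exact p = 0.111). The causes were not tested.

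Gene lists are given as the ratio of their infant-only share to that of all assigned regions. With equal lists it was 0.394 for pan-endothelial, 3.15 for lymphatic, 0.57 for Notch, 2.18 for Wnt, 2.67 for collagen, 1.14 for axon guidance and 0.0 for immune genes. With the centre inside the gene it was 0.406 for pan-endothelial, 0.0 for general capillary, 0.654 for cell cycle and 0.219 for MHC and interferon genes. With gene ends within 10 kb it was 0.0531 for general capillary and 0.303 for ribosomal protein genes. The other 75 list values stayed inside the exact 95% binomial interval of the list's share, which is wide for short lists, so some moved by more than those named.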
